A study of Mus musculus with 4 samples.

Results

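MHC class I presentation and the immunoproteasome were followed through 10 genes in mouse colon epithelium: B2m, H2-K1, H2-D1, Tap1, Tap2, Tapbp, Nlrc5, Psmb8, Psmb9 and Psmb10. They were chosen by name and matched to Entrez gene identifiers, 10 of the 18872 genes listed in at least 1 library. The RNA came from primary colon epithelium of mice that all received 2% dextran sulfate sodium (DSS), a colitis-inducing agent toxic to the mucosa, over 3 days. The Ezh2 knockout group (genotype EZH2-IEC-/-, 2 libraries) was set against the wild-type group (2 libraries), to ask what loss of epithelial Ezh2, the histone methyltransferase of Polycomb complex PRC2, changes under colitis. Mouse strain, age, sex and the driver of the deletion are not given in the sources used here, nor whether libraries of the same genotype are from different animals. Untreated mice were not analysed here.

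Every nucleated cell can show fragments of its own proteins to CD8 T cells on MHC class I. The proteasome cuts the proteins, the TAP transporter carries the peptides into the endoplasmic reticulum, and tapasin with chaperones loads them onto a heavy chain paired with beta-2-microglobulin. Interferon gamma induces the pathway, and swaps the catalytic subunits of the proteasome for the immunoproteasome set, which favours peptides that fit class I. NLRC5 is the transactivator that, with the RFX, CREB and NF-Y factors, drives class I promoters.

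Library totals were 5399949 and 5446998 estimated counts in the knockout group and 5037367 and 5236519 in the wild-type group. Ezh2 had 86 and 83 counts in knockout, against 105 and 102 in wild type, a log2 fold change of -0.27 ± 0.17 (SE) that was not called (edgeR adjusted p = 0.217). Which exons were removed is not stated, so this total over all exons is no check of the genotype.

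The promoters of the heavy and light chain genes share sequence motifs, and are shown here because those genes moved together. Promoter windows (RefSeq, GRCm38.p6, 250 bases before to 50 bases after a start) were found for 8 of the 10 genes, all but Tap2 and Nlrc5. Both strands were searched for an interferon regulatory factor (IRF) core AANNGAAA, the NF-kappaB ends GGG and TTCC with 2 or 3 bases between them, the CREB core TGACG and the NF-Y box CCAAT. Capitals mark every match, and no matches overlap in the sequences below, printed 5′ to 3′. They hold the 180 bases before the start of H2-K1 (chr17:34000348-34000527, minus strand), H2-D1 (chr17:35262914-35263093, plus strand) and B2m (chr2:122147507-122147686, plus strand). The last is the whole 225 bases between the diverging starts of Tap1 and Psmb9 (chr17:34187331-34187555, plus strand, toward Tap1).
H2-K1: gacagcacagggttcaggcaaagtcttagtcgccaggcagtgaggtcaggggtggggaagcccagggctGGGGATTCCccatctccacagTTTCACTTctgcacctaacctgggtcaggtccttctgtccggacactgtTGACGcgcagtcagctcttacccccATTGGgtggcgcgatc
H2-D1: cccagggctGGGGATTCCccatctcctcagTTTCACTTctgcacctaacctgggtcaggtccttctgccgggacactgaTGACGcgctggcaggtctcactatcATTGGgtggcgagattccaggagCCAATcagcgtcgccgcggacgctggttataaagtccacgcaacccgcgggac
B2m: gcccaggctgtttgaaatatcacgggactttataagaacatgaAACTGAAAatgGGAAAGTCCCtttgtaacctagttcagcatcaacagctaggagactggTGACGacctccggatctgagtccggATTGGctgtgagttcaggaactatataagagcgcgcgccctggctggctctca
Tap1 and Psmb9: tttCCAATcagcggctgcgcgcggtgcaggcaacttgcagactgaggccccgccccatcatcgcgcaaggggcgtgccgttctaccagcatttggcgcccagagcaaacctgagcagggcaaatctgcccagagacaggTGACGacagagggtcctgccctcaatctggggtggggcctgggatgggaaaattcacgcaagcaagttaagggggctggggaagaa

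H2-K1 and H2-D1 hold an NF-kappaB site, an IRF core, the CREB core and a reversed NF-Y box (ATTGG) in that order. B2m holds the same 4 kinds with the first pair exchanged. In all 3 promoters the NF-Y box begins 25 bases after the CREB core begins. Of 32851 windows in the table, 31 (0.0944%, 27 genes) hold that pair at that distance and orientation, and H2-M3, a nonclassical class I heavy chain, is the only other H2 gene among them. H2-M3 was called higher, at a log2 fold change of 0.80, but not by DESeq2 (adjusted p = 0.0609) and not without wild-type replicate 1. The single motifs are common, from 5.56% and 5.82% of windows for the NF-kappaB forms to 37.4% for CCAAT, with TGACG in 20.8% and AANNGAAA in 23.9%. Of the 22 genes with the pair that were tested, 8 were higher in knockout, 3 lower and 11 not called, with a median log2 fold change of 0.23. Without H2-K1, H2-D1, B2m and H2-M3, 4 of the remaining 18 were higher (22.2%), close to the 23% of all tested genes, with 3 lower and 11 not called. Tap1 and Psmb9 share a CREB core and an NF-Y box farther apart. Tapbp holds CCAAT and none of the other motifs named above, and the Psmb8 and Psmb10 windows hold none of them. A match is a string of letters, not a measured binding site.

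All 10 genes were higher in knockout than in wild type. Each passed edgeR's quasi-likelihood test (adjusted p under 0.05, below referred to as called), as did 23% of the 13608 tested genes in that direction and 20.8% in the other. Both knockout libraries had a higher FPKM (counts scaled to transcript length and library size) than both wild-type libraries for all 10, against 30.4% of tested genes. The median log2 fold change, knockout over wild type, was 1.89, with a range of 0.48 to 2.89, beside a median of -0.002 over all tested genes. Of the 10 genes, 8 had a log2 fold change of at least 1, against 6.90% of tested genes that were called higher with at least that change. Together they took 0.846% and 0.90% of all counts in the knockout libraries, against 0.329% and 0.332% in the wild-type libraries.

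**Figure D1:**
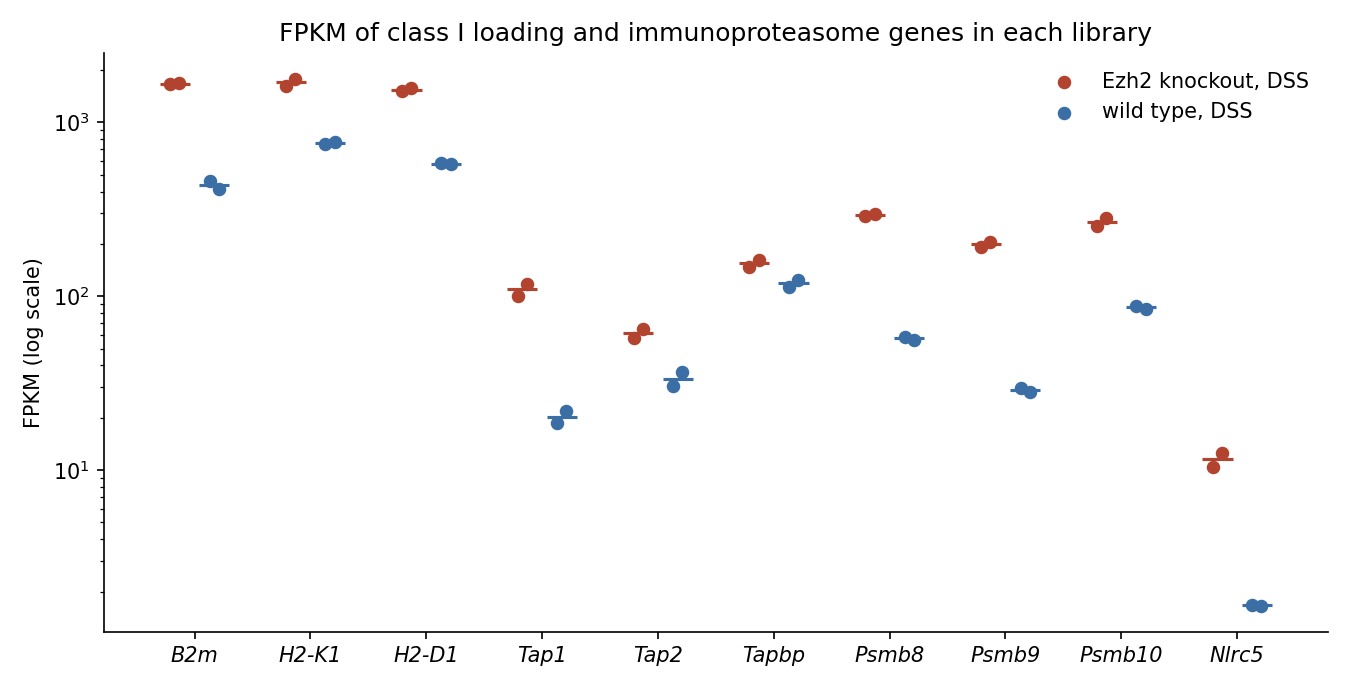
FPKM of the 10 genes in each library on a log scale, with Ezh2 knockout left of wild type; points are libraries and bars are means of 2. No gene has overlapping groups, and the gap is widest for Nlrc5 and Psmb9 and narrowest for Tapbp.

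B2m encodes beta-2-microglobulin, the invariant light chain of every class I molecule. It reached 1659.6 and 1682 FPKM in the knockout libraries, against 459.5 and 412 FPKM in the wild-type libraries. The groups lie far apart and the knockout libraries differ from each other by little (fold 4.12, log2 fold change 2.04 ± 0.08, adjusted p = 3.96e-07). H2-K1 and H2-D1 encode the classical heavy chains that hold the peptide. H2-K1 had 1629 and 1769 FPKM in knockout, against 747 and 769 FPKM in wild type (log2 fold change 1.27 ± 0.07, adjusted p = 1.83e-06). H2-D1 had 1508 and 1570.1 FPKM in knockout, against 583 and 573 FPKM in wild type (log2 fold change 1.51 ± 0.06, adjusted p = 5.08e-07). The light chain gene had a larger fold than either heavy chain gene, a difference between genes that was not tested. The FPKM of B2m divided by the summed FPKM of H2-K1 and H2-D1 was 0.529 and 0.504 in knockout, against 0.345 and 0.307 in wild type. In knockout the levels of H2-K1 and B2m overlapped, whereas in wild type H2-K1 stood above H2-D1 and H2-D1 above B2m, with no overlap.

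The heavy chain genes resemble each other, and their counts are fractional, as they are where a read is divided among copies. Of the 50-base stretches of the longest protein-coding GENCODE transcript, 8.8% for H2-K1 and 14.3% for H2-D1 also occur in another gene's transcript. The share is 0.0% for B2m, Nlrc5, Psmb8, Psmb9 and Psmb10, whose counts are whole. It is 0.9% for Tap1, 0.7% for Tap2 and 2.0% for Tapbp, whose counts are fractional. A sum over copies does not depend on how reads are split among the copies summed. Some stretches are also shared with genes outside the sum, such as 12.9% of those of H2-T23 with H2-T-ps. H2-K1, H2-D1 and the 19 other listed H2 heavy chain genes together had 6653 and 7161 CPM (counts scaled to the library total) in knockout, against 2836 and 2903 CPM in wild type.

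Tap1 and Tap2 encode the chains of the TAP heterodimer. Tap1 had 101 and 118 FPKM in knockout, against 18.6 and 22 FPKM in wild type (log2 fold change 2.53 ± 0.12, adjusted p = 9.69e-07). Tap2 had 57.8 and 65.0 FPKM in knockout, against 30.3 and 36.5 FPKM in wild type (log2 fold change 0.98 ± 0.12, adjusted p = 0.000207). The groups do not overlap for either gene, but the order of the partners differs between genotypes. The FPKM of Tap2 over that of Tap1 was 0.573 and 0.55 in knockout, against 1.63 and 1.66 in wild type. In the RefSeq table the genes run Psmb9, Tap1, Psmb8, Tap2 with no protein-coding gene between them. The first 3 of these had log2 fold changes of 2.89, 2.53 and 2.46, while their neighbour Tap2 had 0.98. Tapbp encodes tapasin, which bridges TAP and the heavy chain. It had 147 and 162 FPKM in knockout, against 113 and 125 FPKM in wild type, the smallest fold of the set (log2 fold change 0.48 ± 0.09, adjusted p = 0.00223). Its FPKM in knockout was 1.3 times that in wild type within each replicate number, while replicate 2 had 1.11 times the FPKM of replicate 1 in knockout and 1.1 times in wild type.

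**Figure D2:**
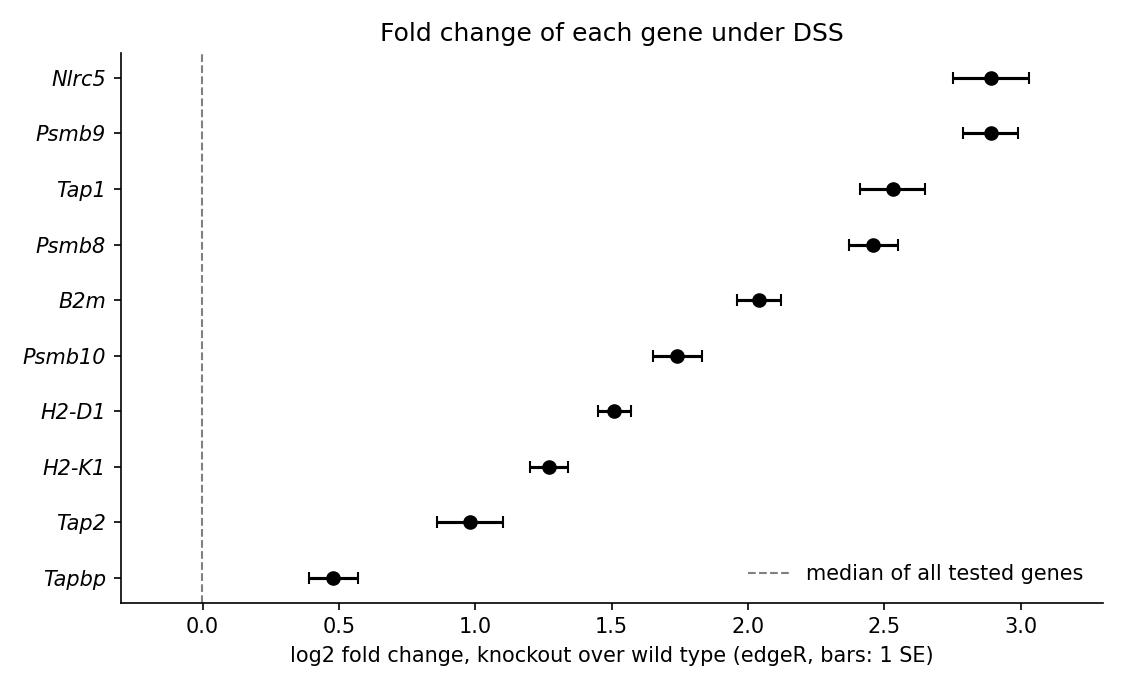
Log2 fold change of each gene, knockout over wild type, with bars of 1 standard error from edgeR; the dashed line is the median of all tested genes. Nlrc5 and Psmb9 stand at 2.89 and Tapbp at 0.48, and neighbouring bars overlap only for Nlrc5 with Psmb9 and for Tap1 with Psmb8.

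Psmb8, Psmb9 and Psmb10 encode LMP7, LMP2 and MECL-1, the catalytic subunits of the immunoproteasome. Psmb8 had 289 and 296 FPKM in knockout, against 58.3 and 56.1 FPKM in wild type (fold 5.49, log2 fold change 2.46 ± 0.09, adjusted p = 2.32e-07). Psmb9 had 192 and 206 FPKM in knockout, against 29.6 and 28.0 FPKM in wild type (fold 7.41, log2 fold change 2.89 ± 0.10, adjusted p = 2.32e-07). Psmb10 had 253 and 283 FPKM in knockout, against 87.6 and 84.8 FPKM in wild type (fold 3.33, log2 fold change 1.74 ± 0.09, adjusted p = 1.94e-06). Of the 3, Psmb9 was lowest in wild type and had the largest fold, and Psmb10 was highest there and had the smallest.

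Each of them replaces a constitutive subunit, Psmb5 for Psmb8, Psmb6 for Psmb9 and Psmb7 for Psmb10. The constitutive genes were called higher too, with log2 fold changes of 0.88 ± 0.10 for Psmb5, 0.93 ± 0.09 for Psmb6 and 0.98 ± 0.09 for Psmb7 (adjusted p = 0.000195, 6.15e-05 and 6.12e-05). The immunoproteasome genes had the larger folds. The FPKM of Psmb8 over that of Psmb5 was 1.47 and 1.74 in knockout, against 0.535 and 0.534 in wild type. For Psmb9 over Psmb6 the ratio was 1.07 and 1.19 in knockout, against 0.303 and 0.278 in wild type. For Psmb10 over Psmb7 it was 1.54 and 1.88 in knockout, against 1.02 and 0.993 in wild type. All 6 knockout ratios are above 1, meaning that the inducible gene had the higher level per length. In wild type Psmb8 and Psmb9 were below their partners and Psmb10 was level with its partner. The mean ratio was 3.0, 3.89 and 1.7 times as high in knockout for the 3 pairs. These ratios are descriptions, since 2 libraries against 2 cannot reach a p below 0.05 in an exact permutation test, where the smallest two-sided p is 0.333.

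**Figure D3:**
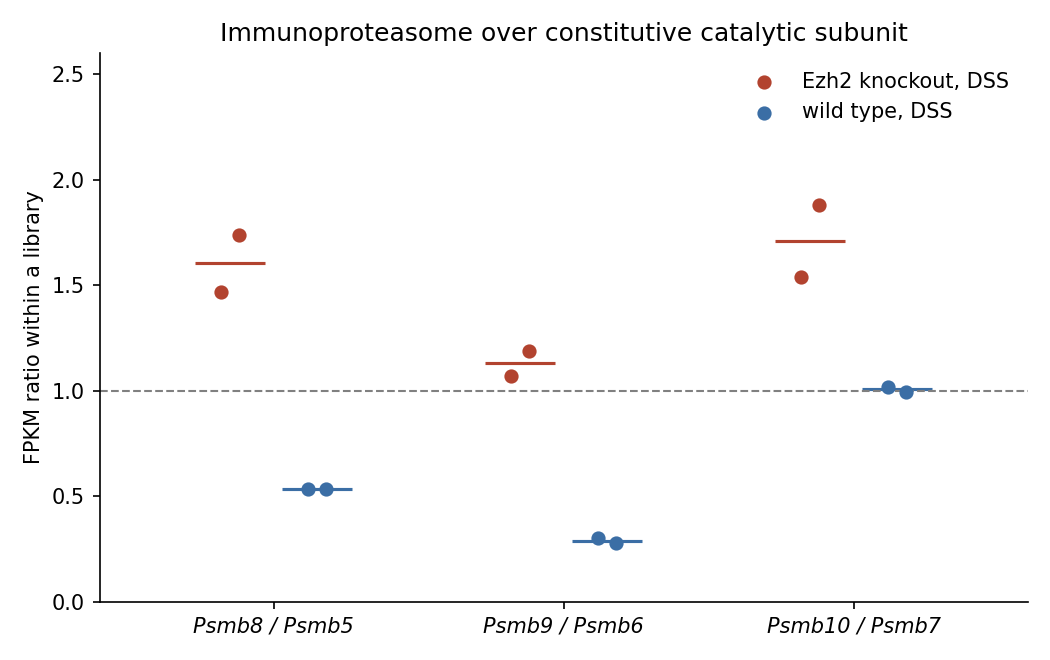
Ratio of the FPKM of each immunoproteasome subunit gene to that of the constitutive subunit gene it replaces, within each library; points are libraries, bars are means of 2, and the dashed line marks equal FPKM. Knockout libraries lie between 1.07 and 1.88 and wild-type libraries between 0.278 and 1.02.

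Nlrc5, the class I transactivator, was the least abundant of the set. It had 397 and 482 counts in knockout, against 59 and 61 counts in wild type. In FPKM this was 10.4 and 12.6 in knockout, against 1.67 and 1.66 in wild type (fold 7.42, log2 fold change 2.89 ± 0.14, adjusted p = 1.08e-06). Its rise ranked 149th of the 13608 tested genes by log2 fold change, next to Psmb9 at 150. The knockout libraries differ most from each other at this gene, with replicate 2 at 1.2 times replicate 1, which is small beside the gap between genotypes. All 10 genes were higher in knockout replicate 2 than in knockout replicate 1, by 1.01 to 1.2 times. Replicates with the same number share an annotation version, and all 10 genes have the same transcripts in every file. Within replicate 1 the knockout to wild-type FPKM ratio was 3.61 for B2m, 6.48 for Psmb9, 6.25 for Nlrc5 and 1.3 for Tapbp. Within replicate 2 these ratios were 4.09, 7.36, 7.57 and 1.3. FPKM lacks the scaling between libraries that edgeR applied (TMM), so these ratios and the edgeR folds are on different scales.

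Class I heavy chains outside the set were mostly higher in knockout. Of 25 listed by name 19 were tested, of which 14 were called higher and 1 lower, with a median log2 fold change of 1.54. Among all tested genes 23% were called higher and 20.8% lower. H2-Q7, a Qa-2 gene, had 120 and 121 FPKM in knockout, against 1.95 and 2.13 FPKM in wild type (log2 fold change 6.0 ± 0.14, adjusted p = 2.74e-08). H2-Q9 had 71.6 and 74.9 FPKM in knockout, against 9.11 and 14.7 FPKM in wild type. H2-Q4 had 153 and 183 FPKM in knockout, against 51.9 and 52.8 FPKM in wild type, and H2-T22 rose by a log2 fold change of 1.54 ± 0.09. H2-K2 was the gene called lower, at -1.28 ± 0.28. Counts of these genes are fractional, and 34.9% of the 50-base stretches of H2-Q7 and 44.7% of those of H2-T22 occur in another gene, so the split among copies is uncertain.

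Trimming and loading genes moved the same way, with 14 of 15 tested genes called higher, 0 lower and a median of 1.01. The counts in this paragraph stand beside 23% of all tested genes called higher and 20.8% called lower. Lap3, a cytosolic aminopeptidase, had 113 and 104 FPKM in knockout, against 29.9 and 30.01 FPKM in wild type (log2 fold change 1.96 ± 0.09). Calr, the chaperone calreticulin that holds the heavy chain for loading, had 934 and 804 FPKM in knockout, against 364 and 353 FPKM in wild type (log2 fold change 1.38 ± 0.09). Sec61b and Sec61g, subunits of the translocation channel of the endoplasmic reticulum, had log2 fold changes of 1.64 and 1.40. Calr and the Sec61 genes also serve secretory proteins in general. All 11 other subunits of the 20S proteasome core were called higher, with a median of 0.92, below each immunoproteasome subunit gene. Psma5, Psmb4 and Psmb2 had log2 fold changes of 1.19, 1.06 and 1.06, and Psma3, whose transcript lists differ between annotation versions, 1.10. Of 9 activator and assembly genes 7 were called higher and 0 lower. Psme1 and Psme2 encode the interferon-inducible PA28 activator, and had log2 fold changes of 1.54 ± 0.10 and 1.48 ± 0.12. Pomp, an assembly chaperone, had 261 and 222 FPKM in knockout, against 96.1 and 101 FPKM in wild type, and Psme4 rose by 0.76.

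**Figure D4:**
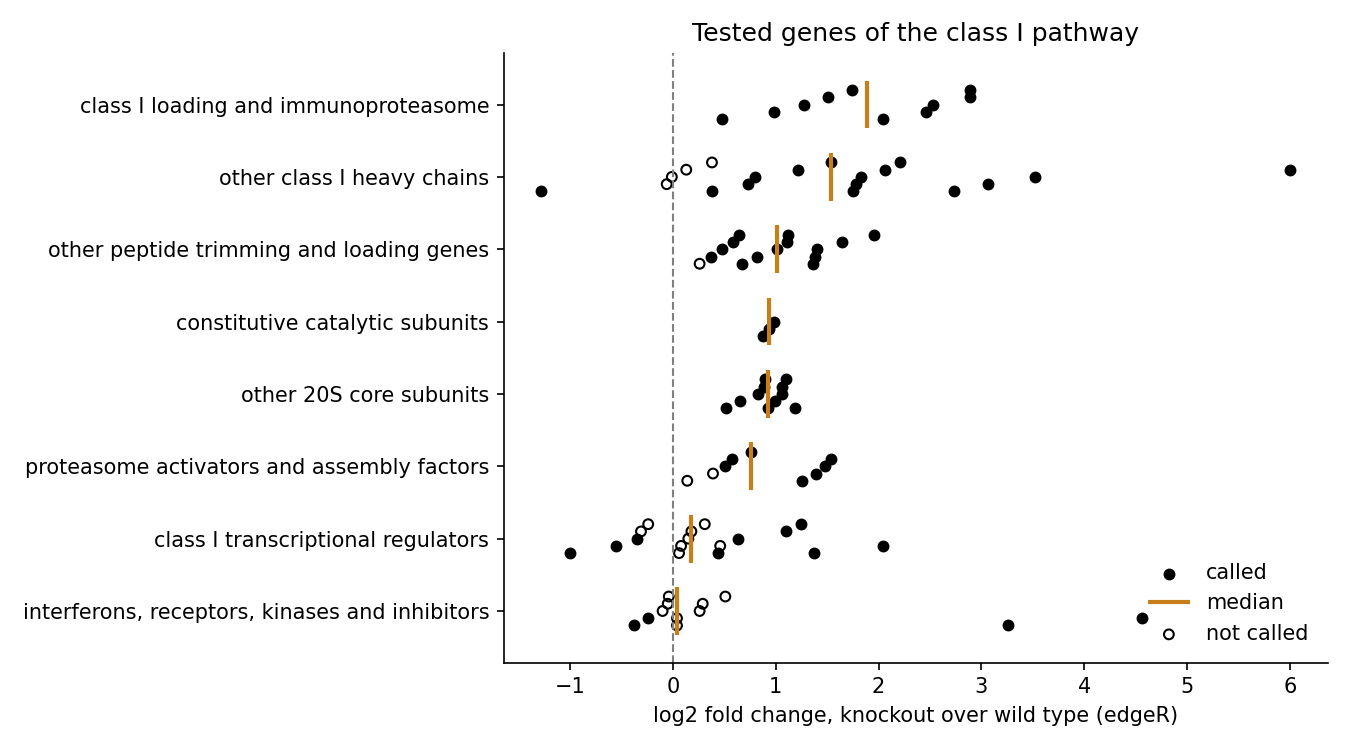
Log2 fold change, knockout over wild type, of each tested gene in 8 lists of the class I pathway; filled points passed edgeR's test, open points did not, and orange bars are list medians. The 10 class I loading and immunoproteasome genes have a median of 1.89, above the 0.92 of the other 20S core subunits and the 0.04 of the interferon receptor and kinase list.

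Factors that act on class I promoters did not move as a group. Of 17 tested regulators 6 were called higher, 3 lower and 8 were not called, with a median of 0.18. Over all tested genes 23% were called higher and 20.8% lower. Irf1, a direct activator of class I and immunoproteasome genes, had 181 and 224 FPKM in knockout, against 90.9 and 91.8 FPKM in wild type (log2 fold change 1.25 ± 0.11). Irf8 rose by 1.10, and Ciita and Stat2 were also called higher, at 1.37 and 0.63. Irf2, a factor that competes with IRF1 for its sites, fell to 18.2 and 19.6 FPKM in knockout, against 41.3 and 40.1 FPKM in wild type, and Irf7 was called lower too, at -0.55. Of the partners of NLRC5 on the promoter, Rfx5, Rfxap, Rfxank, Creb1 and Nfyb had log2 fold changes of 0.46, 0.15, -0.24, -0.31 and 0.06. None of these 5 was called at the settings used for the values above. With a replicate block Rfx5 was called higher and Rfxank and Creb1 lower, and with library totals in place of TMM Rfxank and Creb1 were called lower. The other NF-Y chains were called in opposite directions, Nfya at -0.35 and Nfyc at 0.44. The call of Nfya was lost without any 1 of the 4 libraries (adjusted p of 0.0522 to 0.203) and that of Nfyc without wild-type replicate 2 (adjusted p = 0.0567). Rfxank was called lower without knockout replicate 2 and Creb1 without wild-type replicate 2. Creb1 was also called lower when only genes with a mean FPKM of at least 5 were kept (edgeR adjusted p = 0.0378).

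Of 12 tested interferon receptor, kinase and inhibitor genes 2 were called higher and 2 lower, beside 23% and 20.8% of all tested genes. Socs1, the feedback inhibitor of JAK kinases downstream of the interferon gamma receptor, had 73.4 and 70.9 FPKM in knockout, against 3.95 and 2.69 FPKM in wild type (log2 fold change 4.56 ± 0.17, adjusted p = 2.32e-07). Socs3, another inhibitor of the family, rose by 3.26. The receptor chains Ifngr1 and Ifngr2 were the genes called lower, with log2 fold changes of -0.24 and -0.38. The call of Ifngr1 was lost without any 1 of the 4 libraries (edgeR adjusted p of 0.0505 to 0.287). That of Ifngr2 was lost without knockout replicate 1 or wild-type replicate 2 (adjusted p = 0.0543 and 0.0973). Ifng itself had 14 and 8 counts in knockout, against 0 and 1 count in wild type, too few to be tested. Ifnb1 and Ifnl2 were not listed.

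Most T, NK, myeloid and general leukocyte markers were also higher in knockout, and their part in the class I result was not tested. The counts below stand beside 23% of all tested genes called higher and 20.8% called lower. Of 13 tested T and NK cell markers 11 were called higher and 0 lower, and the summed FPKM of the list was 101 and 100.1 in knockout, against 28.2 and 25.2 in wild type. Gzma had 19.9 and 13.5 FPKM in knockout, against 0.69 and 1.78 FPKM in wild type, and Gzmb had 13.8 and 10.7 FPKM in knockout, against 0.56 and 0.14 FPKM in wild type. Nkg7, Klrd1 and Ncr1 were at 0 in wild-type replicate 1. Klrd1 had 4 and 7 counts in knockout, against 0 and 2 counts in wild type. Ncr1 had 1 and 1 count in knockout, against 0 and 2 counts in wild type, and neither gene had enough counts to be tested. The list for all leukocytes had 5 of 6 genes called higher and 0 lower, with a summed FPKM of 184 and 226 in knockout, against 127 and 116 in wild type, led by Cd52 and Coro1a. Its defining member Ptprc (CD45) had 9.46 and 11.4 FPKM in knockout, against 8.75 and 8.27 FPKM in wild type (log2 fold change 0.38, edgeR adjusted p = 0.0303). That call was lost in 8 of 13 alternatives, among them without knockout replicate 2 or without either wild-type library (adjusted p of 0.0808 to 0.163). Macrophage and dendritic cell markers had 9 of 13 called higher and 0 lower, with a summed FPKM of 320 and 350.1 in knockout, against 205 and 209 in wild type, led by C1qa and C1qb. Neutrophil markers other than Ly6g, which the replicate 1 files do not list, had 3 of 4 called higher. Their summed FPKM was 156 and 133 in knockout, against 6.95 and 10.3 in wild type. In knockout S100a8, at 98.01 and 89.55 FPKM, and S100a9, at 51.53 and 32.35 FPKM, made up most of that sum. Cxcr2 was not called, with a log2 fold change of 0.39 (edgeR adjusted p = 0.339), and Mpo and Elane were not listed. Of 6 B and plasma cell markers 2 were called higher and 3 lower, with a summed FPKM of 261 and 341 in knockout, against 218 and 196 in wild type, led by Jchain and Cd79a. Cd79a was called lower, at -0.74, a call lost without knockout replicate 1 or wild-type replicate 2 (edgeR adjusted p = 0.0554 and 0.0591). In bulk RNA more cells of a type and more RNA per cell cannot be told apart.

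Epithelial markers were high in every library, as the labelled cell type has them. Their summed FPKM was 14062 and 14657 in knockout, against 12667 and 13104 in wild type. Of the 12 genes 7 were called higher and 3 lower, beside 23% and 20.8% of all tested genes. Krt8 and Krt19 were the most abundant, with log2 fold changes of 0.30 and 0.29, and were not called by limma on FPKM. Krt20, a keratin of differentiated cells, had 1.25, near the 1.27 of H2-K1, and Krt18, Vil1 and Muc2 had 0.68, 0.58 and 0.54, above the 0.48 of Tapbp. The 3 called lower were Cdh1, Cdhr5 and Epcam, with log2 fold changes of -0.60, -0.54 and -0.27. Of 9 fibroblast and smooth muscle markers 8 were called lower and 0 higher, with a summed FPKM of 897 and 1149 in knockout, against 1989 and 2159 in wild type, led by Tagln and Acta2. Endothelial markers, with Pecam1 the most abundant, had 3 of 5 called lower and 0 higher, with a summed FPKM of 10.3 and 12.9 in knockout, against 19.0 and 17.8 in wild type. Without wild-type replicate 1 neither Pecam1 nor Kdr was called (edgeR adjusted p = 0.143 and 0.0621), and Pecam1 was also not called without knockout replicate 1 or wild-type replicate 2 (adjusted p = 0.138 and 0.0857).

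The genes nearest to the mean profile of the set were found over the 4 libraries, by Euclidean distance between centred log2 CPM. They were Serpinb6b, Xdh, Pglyrp1, B4galnt1 and Sfn, at distances of 0.0552 to 0.092. With 4 libraries in 2 groups this likeness mostly reflects a similar fold, with log2 fold changes of 1.83 to 2.12. Pglyrp1, an antibacterial peptidoglycan recognition protein, was the most abundant, with 1188 and 1214 FPKM in knockout, against 362 and 363 FPKM in wild type. Within the set Psmb10 and B2m lay closest to the mean profile, at 0.152 and 0.232, and Tapbp lay farthest, at 1.39.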

How the data were processed

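Per the labels' protocols, RNA of colon epithelial cells was extracted with Trizol and made into TruSeq libraries. For every library the authors deposited gene lengths, expected counts (estimates, so they can be fractional) and FPKM values, per the file headers. The submitters' processing notes name Bowtie2, BWA and the human build hg19. The quantifier and the mouse annotation are not given in the sources used here. Symbols came from RefSeq (GRCm38.p6), which matched 18820 of 18872 identifiers. Replicate 1 files share an annotation and replicate 2 files another, with 574 and 576 genes differing in transcripts between them.

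Counts were rounded, genes missing from a file were set to 0, and all genes were tested by the quasi-likelihood method of edgeR 4.0.16 under R 4.3.3 (TMM scaling, filterByExpr, two-sided, Benjamini-Hochberg adjustment over 13608 genes, threshold 0.05, no block). The standard error is the log2 fold change divided by the root of the F statistic. The test was run on simulated counts with the same dispersion for all genes and independent libraries. That setting is simpler than these data, so the run does not measure the error rate here. The common dispersion was 0.0166, a coefficient of variation of 12.9%. Between the knockout libraries chi-square per degree of freedom was 2.95, and between the wild-type libraries 2.18, beyond sampling noise. Where nothing says that libraries came from separate mice, p-values measure only the spread between libraries, which may be technical. The 10 genes and all lists were chosen with earlier results of these data known. Beside the 10 genes, the text names the constitutive catalytic subunits, up to 4 called genes of each list by p, the 2 most abundant genes of each marker list and the 5 nearest profiles; 1 gene of that rule and 1 motif are not reported here. Other named genes, such as Ifng, Ptprc and the partners of NLRC5, and the motif spacing were chosen after values were seen. Alternatives used edgeR with other scalings and filters, DESeq2 1.42.0, limma 3.58.1 on log2(FPKM + 1) and log2(FPKM + 0.1), and left out each library.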

Additional observations from a re-analysis of the deposited data

How the results depend on the processing

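All 10 genes were called higher under each of 13 alternatives, 130 values in all. The lowest log2 fold change was 0.38 for Tapbp and the largest adjusted p was 0.0293, also for Tapbp. Nlrc5, the least abundant gene, ranged from 2.22 to 3.01. In edgeR the median log2 fold change of all genes was -0.103 with library totals in place of TMM, and with limma on log2(FPKM + 0.1) it was -0.101. Of all called genes, 52.5% were higher with TMM (3126 higher, 2824 lower) and 42.4% with library totals (2555 higher, 3465 lower).

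Of 64 other named genes that were tested, 50 kept their call under every alternative that tested them and 14 did not (Nfya, Nfyc, Rfx5, Rfxank, Creb1, Ifngr1, Ifngr2, Ptprc, Krt8, Krt19, Cd79a, Pecam1, Kdr and H2-M3), none with a change of direction. Cdh1, Cdhr5, Epcam, Ly6g, Ciita, Stat2, S100a9 and Cxcr2 were not among these 64. With a library left out, the genes called lower in the pathway lists numbered 3 to 5, against 6 with all libraries. The cause was not tested. The mean ratio of Psmb8 to Psmb5 in knockout over that in wild type ranged from 2.75 to 3.26, that of Psmb9 to Psmb6 from 3.68 to 4.1 and that of Psmb10 to Psmb7 from 1.53 to 1.87. The lowest of each came without knockout replicate 2.

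The labels do not say that a replicate number marks a shared mouse or day. Deviations from the group mean correlated across 13608 genes between libraries of the same number (Pearson r = 0.571), and with a replicate block 7403 genes were called, against 5950 without it. These genes include some, such as Ly6g and Psma3, whose listing or transcripts differ between the annotation versions of the 2 replicate numbers. The correlation does not separate that difference from a shared mouse or day. All 10 genes were called higher with the block, and so was Rfx5 (adjusted p = 0.0201), while Rfxank and Creb1 were called lower (adjusted p = 0.0382 and 0.0122). With library totals Rfxank and Creb1 were called lower as well (adjusted p = 0.0404 and 0.0249). With 59 counts of Nlrc5 in a wild-type library, counting error is largest for that gene.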
